A study of Mus musculus with 4 samples.

Results

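The cytosolic ribosomal protein genes encode the proteins of the small and large subunit of the ribosome, and they were followed here through macrophages, T cells and B cells of the mouse peritoneal cavity on a chow diet (CD) and on a high-fat diet (HFD). The genes were taken by their symbols (Rps, Rpl and Rplp names with a number, and Rpsa) where they had at least 20 unique molecular identifiers (UMIs, counted mRNA molecules) over both expression matrices. Of 33696 genes in the files, 83 had such a symbol and 81 passed, 32 of the small and 49 of the large subunit. The gene just inside the minimum was Rpl39l with 224 UMIs. The gene just outside it was Rpl3l with 15 UMIs, and Rpl10l had 0. The rule used no comparison of diets or cell types.

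Immune cells of wild-type mice were washed out of the peritoneal cavity, sorted by flow cytometry for CD45, a surface protein of leukocytes, and profiled by droplet single-cell RNA sequencing. Both diets began at 4 weeks of age and lasted 3 months. Each diet is 1 expression library with 1 B-cell receptor library of the same cells. The labels give neither strain nor sex, nor the number of mice or whether mice were pooled, and their treatment note puts both groups on the high-fat diet, so the groups used are those of the sample titles and the design text. With 1 library per diet no difference between diets could be tested, and every interval below is a 95% interval for counting error only.

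Macrophage barcodes had 5 or more UMIs of Adgre1, Prg4, Alox15 and Garnl3 together, T barcodes had 2 or more of the CD3 genes Cd3e, Cd3d and Cd3g, and neither had a receptor contig; barcodes with a contig were taken as B cells. This gave 2144 macrophage, 1018 T and 7112 B barcodes in CD, and 1477, 771 and 3677 in HFD. Each marker list summed highest in its own class, in counts per 1000000 UMIs of the class (CPM); Adgre1 and the CD3 genes are also in the rule for the classes. The 12 macrophage markers gave 57181 CPM in CD and 50938 CPM in HFD macrophages, 1884 and 1717 CPM in T barcodes and 4435 and 2642 CPM in B barcodes. The 10 T markers gave 3307 and 3996 CPM in T barcodes, 24.9 and 11.4 CPM in macrophages and 139 and 97.8 CPM in B barcodes. The libraries hold 73549582 UMIs for CD and 57630074 for HFD. HFD barcodes were deeper, with a median of 12309 UMIs per macrophage barcode against 4873 in CD, 5045 against 3721 in T barcodes, and 5983 against 4628 in B barcodes. Markers of B cells were found in the other classes, more so in CD: the 10 B markers summed to 1250 CPM in CD macrophages and 276 CPM in HFD macrophages, and to 2931 and 960 CPM in T barcodes, against 9864 and 10694 CPM in B barcodes. Of 13227 and 6897 barcodes, 30 were shared between the libraries.

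A ribosome holds one copy of most of its proteins, so cells make the mRNAs of these genes in near balance and in large amounts. Many of the mRNAs begin with a C followed by a run of pyrimidines, the terminal oligopyrimidine (TOP) motif, through which the kinase complex mTORC1 and the RNA-binding protein LARP1 adjust their translation and storage to nutrient and growth signals. Lymphocytes are small cells with little cytoplasm, in which ribosomal protein mRNAs usually form a large part of all mRNA, and resident macrophages of the peritoneal cavity are larger cells rich in lysosomal and secretory mRNAs.

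The start sites are shown because the TOP motif is the feature by which these genes are best known to be regulated. The windows run from 20 bases before to 15 bases from the start of the RefSeq transcript, on the sense strand, in build GRCm38.p6. The matrices were made on mm39, so these coordinates are not those of the count files. Capitals mark the longest run of a C followed by at least 4 pyrimidines that begins within 10 bases of the start; a shorter run, as in Rpl39, stays in lower case. The first 4 genes are those that later stand apart in every cell class, and the last 3 are genes that stayed closest to the rest.
Rps28: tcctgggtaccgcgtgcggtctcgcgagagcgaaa
Rpl38: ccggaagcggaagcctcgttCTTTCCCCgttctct
Rpl39: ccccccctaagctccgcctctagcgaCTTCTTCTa
Rpl37a: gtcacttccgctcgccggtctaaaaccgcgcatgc
Rpl27a: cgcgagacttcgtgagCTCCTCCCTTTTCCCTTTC
Rpl15: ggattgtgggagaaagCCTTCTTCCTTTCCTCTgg
Rpl26: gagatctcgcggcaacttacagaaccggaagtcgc

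The window of Rps28 is chr17:33824548-33824582 on the minus strand, and that of Rpl38 is chr11:114668560-114668594 on the plus strand. Rpl39 lies at chrX:37085208-37085242 on the minus strand and Rpl37a at chr1:72711240-72711274 on the plus strand. The windows of the comparison genes are chr7:109519175-109519209 on the plus strand for Rpl27a, chr14:18270972-18271006 on the minus strand for Rpl15, and chr11:68901546-68901580 on the plus strand for Rpl26. The table held a start for 61 of the 81 genes, at 72 promoters; Rps29 had no match. A pyrimidine run was found at 39 of the 72 promoters (54.2%), against 10093 of 32851 promoters of all genes (30.7%). The letters CCGGAA, on either strand of the 300-base promoter, the core of sites for ETS transcription factors, were in 36 of 72 (50%) against 14.9% of all promoters. Of the 4 genes that stand apart and have an entry, 2 had a pyrimidine run, so the run was not shared by all of them. A match describes the letters and is not a measured site.

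Ribosomal protein mRNAs made up 18.6% of all UMIs in CD macrophages (18.5 to 18.6), 31.7% in T barcodes and 32.7% in B barcodes. In HFD the shares were 18.8%, 33.4% and 31.1%. The classes kept their places: both kinds of lymphocyte stood far above macrophages in each library. Between diets the share was nearly level in macrophages, with a log2 ratio of HFD over CD of 0.018 (0.016 to 0.020), higher in HFD in T barcodes (0.073, a difference of 1.66 points) and lower in HFD in B barcodes (-0.069, a difference of -1.53 points). The medians over single barcodes ran the same way: 30.4% in CD and 33.2% in HFD for T barcodes, and 32.6% and 30.4% for B barcodes. For macrophages the medians were 17.7% in CD and 18.6% in HFD, farther apart than the summed shares.

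The share varied with the depth of a barcode, so it was also read within ranges of total UMIs. In B barcodes of 2000 to 4000 UMIs it was 31.1% in CD and 28.2% in HFD, at 4000 to 8000 it was 32.8% and 30.6%, and at 8000 to 16000 it was 34.2% and 32.5%. HFD was lower in these 3 ranges, which hold most B barcodes, and higher by 0.523 points below 2000 UMIs and by 1.34 points above 16000. In T barcodes HFD was higher by between 0.430 and 2.52 points in the 4 ranges below 16000 UMIs and differed by -2.81 points above, where only 17 CD and 11 HFD barcodes lie. Macrophages of HFD were higher by 0.698 points below 2000 UMIs and by 0.816 points at 2000 to 4000. They were higher by 0.373 points at 4000 to 8000 and by 0.133 points at 8000 to 16000. Above 16000 they differed from CD by -0.036 points, with an interval that includes 0.

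**Figure D1:**
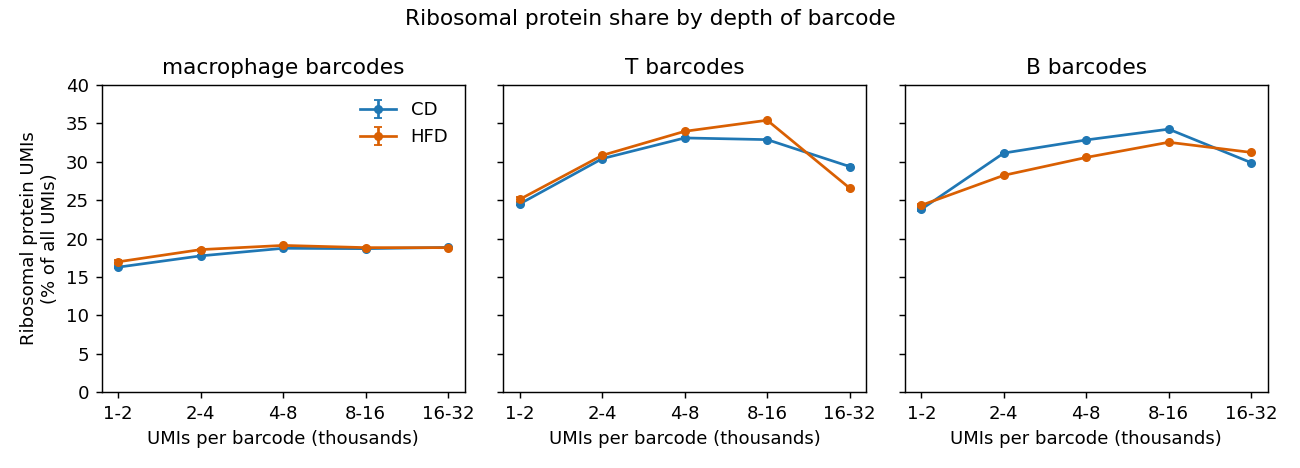
Share of UMIs from the 81 ribosomal protein genes (y axis, percent) by range of total UMIs per barcode (x axis), for macrophage, T and B barcodes of the CD and HFD libraries; bars on the points are 95% counting intervals, mostly smaller than the points. B barcodes of HFD lie below CD from 2000 to 16000 UMIs, at 28.2% against 31.1% in the lowest of these ranges, and T barcodes of HFD lie above CD up to 16000 UMIs.

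The B RNA found outside B cells bears on these shares. Removing the B-class profile in the amount given by the B markers, a calculation added after the data were seen, set the macrophage share at 16.5% in CD and 18.5% in HFD (log2 ratio 0.16) and the T share at 31.2% and 33.6% (0.10). Leaving out barcodes that carried markers of another class gave 17.6% and 18.6% for macrophages (0.08), 32.3% and 33.4% for T barcodes (0.046), and 33.8% and 31.6% for B barcodes (-0.10). In the B class the neutrophil markers S100a8, S100a9, Csf3r and Ly6g summed to 8.09 CPM in CD and 103 CPM in HFD; the part of the neutrophil signal was not tested.

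Subsets of each class did not all follow the class. Among T barcodes, those with Cd8a or Cd8b1 and no Cd4, the cytotoxic lineage, had a share of 34.3% in CD and 37.2% in HFD (217 and 245 barcodes; log2 ratio 0.12). Those with Cd4 alone, the helper lineage, had 32.2% and 31.5% (222 and 182 barcodes; -0.031). By summed UMIs the share was thus higher in HFD in the CD8 and not in the CD4 barcodes, a difference that was not tested. The medians over single barcodes were 32.8% and 37.8% for CD8 and 30.9% and 31.1% for CD4 barcodes. The rest of the 1018 CD and 771 HFD T barcodes, with neither or both lineages, are in neither subset. The part of the mix of subsets in the T share was not tested. Among B barcodes the share was lower in HFD in each of 3 subsets taken by their heavy chain contig: 30.4% and 26.7% with IGHD, typical of conventional B cells (-0.18), 31.5% and 28.5% with class-switched IGHG or IGHA (-0.15), and 34.5% and 33.5% with IGHV11-2, a gene segment typical of B-1 cells (-0.042). Macrophages with 2 or more UMIs of the proliferation genes Mki67 and Top2a had 19.2% and 19.0% (20 and 110 barcodes), close to the 18.6% and 18.8% of those with none.

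Most single genes lay less than 0.32 log2 units from the median gene of their class, and a small set stood farther above it in all 3 classes. The median gene had a log2 ratio of HFD over CD of 0.045 in macrophages, 0.047 in T and -0.13 in B barcodes, beside -0.05, -0.03 and 0.01 over all genes tested. In B barcodes 61 of 81 genes were below 0. Within 0.1 log2 units of the median gene of the class lay 36 of 81 genes in macrophages, 45 of 80 in T and 55 of 81 in B barcodes, Rpl39l having too few UMIs in T. For these counts the share over all genes is not given. A gene was said to depart where it lay at least 0.32 log2 units from the median gene with an interval that left the median out.

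In macrophages 7 genes departed above and 1 below, where 9.1% and 21.9% of all genes tested did. In T barcodes 7 departed above and 0 below (6.48% and 14% of all genes), and in B barcodes 9 and 0 (18.2% and 5.9%). Within a class the share of ribosomal protein genes that departed above, 8.64%, 8.75% and 11.1%, is thus close to or under that of all genes, and taken by class the count is no result about these genes. Among genes outside the set with at least 500 CPM, 20.4% departed above and 16.2% below in macrophages, 7.01% and 14.6% in T, and 24.1% and 3.8% in B barcodes. Over the classes together 5 of the 80 genes tested in each departed above in all 3 (6.25%), against 0.949% of all genes and 1 of 98 genes (1.02%) outside the set with at least 500 CPM in each class. None departed below in all 3, where 1.39% of all genes did. The 5 genes were Rps29, Rps28, Rpl38, Rpl37a and Rpl39.

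**Figure D2:**
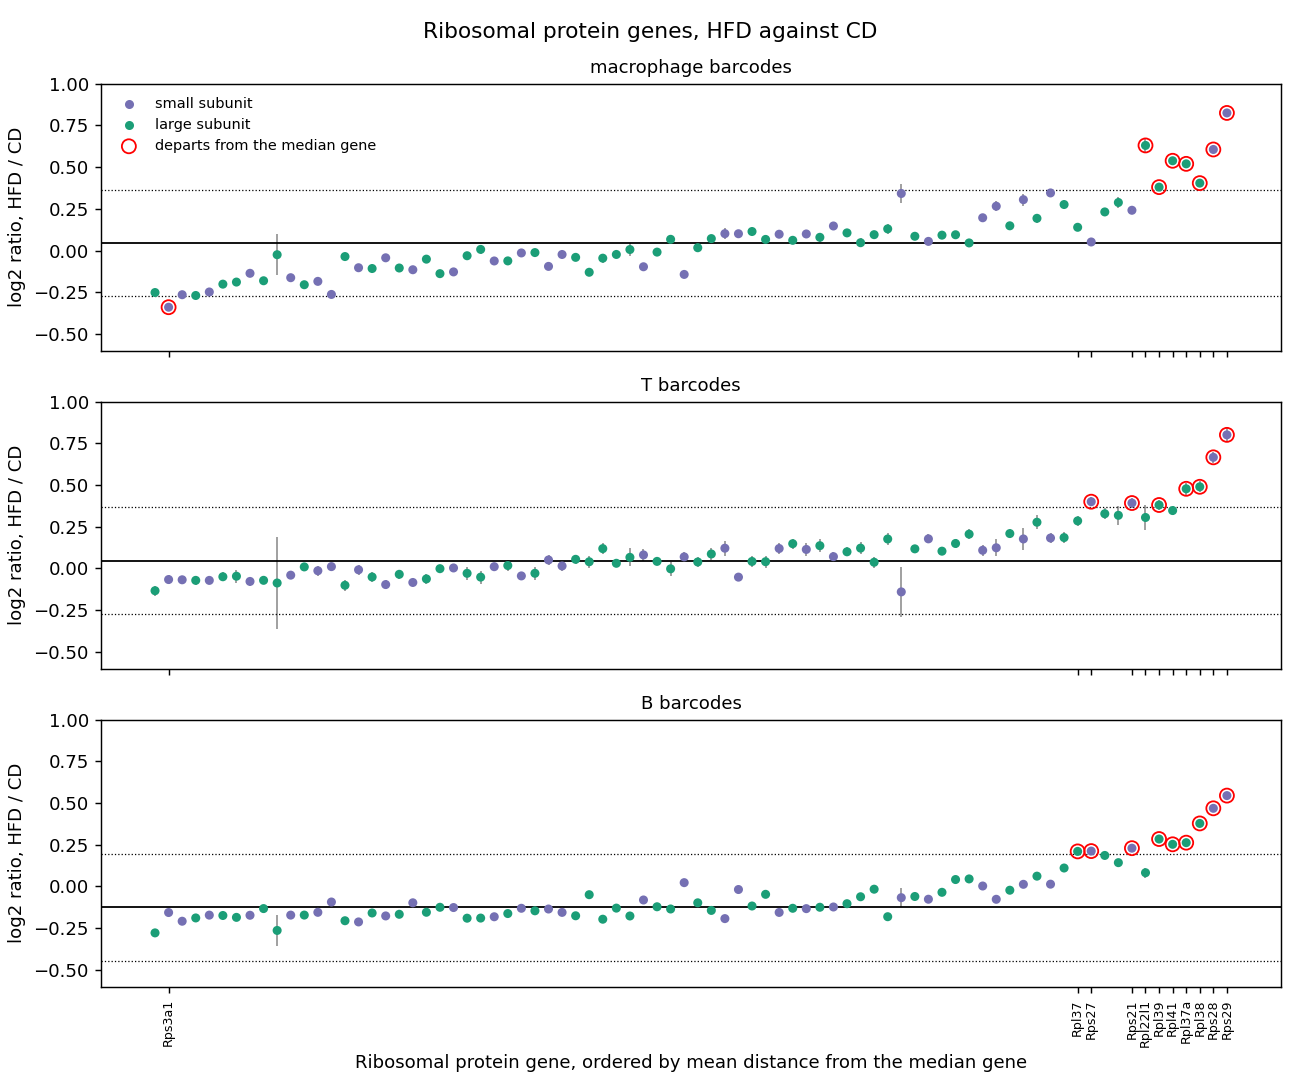
Log2 ratio of HFD over CD (y axis) of 80 ribosomal protein genes (x axis, ordered by their mean distance from the median gene; Rpl39l is left out) in macrophage, T and B barcodes, with 95% counting intervals; the solid line is the median gene, the dotted lines lie 0.32 above and below it, red rings mark genes that depart in the class, and genes that depart in at least 1 class are named. Rps29 is the farthest above the median in each panel, at 0.82, 0.80 and 0.54, and most genes lie between the dotted lines.

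Rps29, a zinc-binding protein of the small subunit head, was the farthest of the set in each class. Its level was 1264 CPM in CD and 2239 CPM in HFD macrophages (log2 ratio 0.82; 0.80 to 0.85), 1718 and 2993 CPM in T barcodes (0.80; 0.76 to 0.84), and 1846 and 2692 CPM in B barcodes (0.54; 0.53 to 0.56). HFD was higher in every class, and in B barcodes, where the median gene was lower in HFD, Rps29 was higher all the same.

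Rps28, a small subunit protein near the channel where mRNA leaves the ribosome, followed Rps29 in T and B barcodes, and Rps29 and Rpl22l1 in macrophages. It stood at 1708 and 2599 CPM in macrophages of CD and HFD (0.61), at 2515 and 3990 CPM in T barcodes (0.67) and at 2561 and 3543 CPM in B barcodes (0.47). The order of the classes differs from that of Rps29, with the T ratio above the macrophage ratio.

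The other 3 belong to the large subunit. Rpl38, known from mouse mutants with skeletal patterning defects, had 1543 and 2041 CPM in macrophages (0.40), 2635 and 3699 CPM in T barcodes (0.49) and 2550 and 3312 CPM in B barcodes (0.38). Rpl37a, a zinc-finger protein, had 1429 and 2048 CPM in macrophages (0.52), 2402 and 3344 CPM in T barcodes (0.48) and 2643 and 3169 CPM in B barcodes (0.26). Rpl39, which lines the exit tunnel for the new protein chain, had 2169 and 2822 CPM in macrophages (0.38), 3927 and 5112 CPM in T barcodes (0.38) and 4218 and 5135 CPM in B barcodes (0.28). For all 5 genes the B barcodes had the smallest ratio. Measured from the median gene of the class, which was lower in HFD in B barcodes, Rpl38 and Rpl39 lay farthest out in B, at 0.50 and 0.41.

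**Figure D3:**
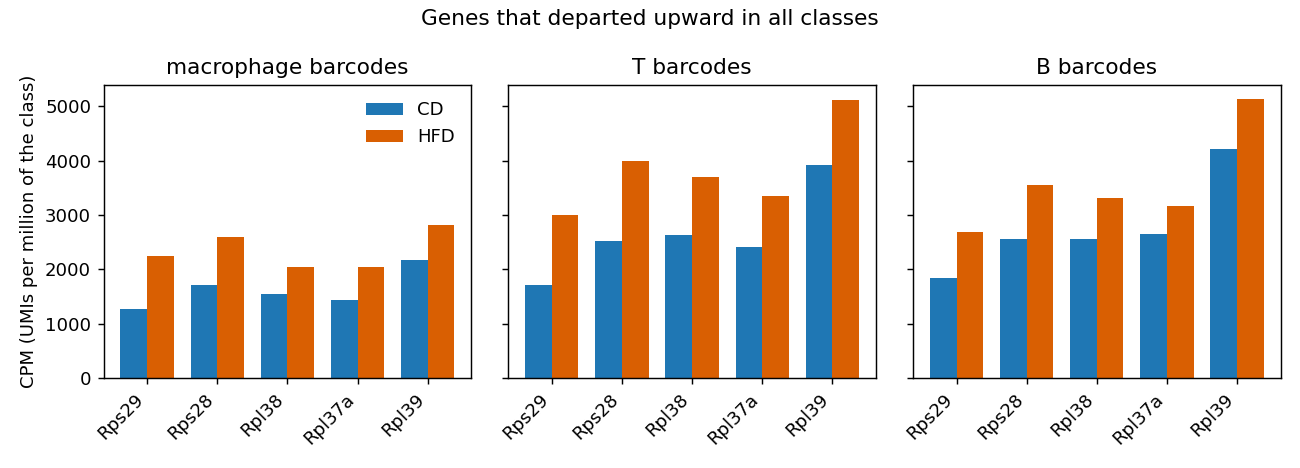
Level in CPM (y axis) of Rps29, Rps28, Rpl38, Rpl37a and Rpl39 in CD and HFD (bars, 1 library each, no replicates) for macrophage, T and B barcodes. Each HFD bar is above its CD bar, from 1264 to 2239 CPM for Rps29 in macrophages to 4218 to 5135 CPM for Rpl39 in B barcodes.

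Summed, the 5 genes were 4.37% of the ribosomal protein UMIs in CD macrophages and 6.25% in HFD (log2 ratio 0.52), 4.16% and 5.73% in T barcodes (0.46), and 4.23% and 5.73% in B barcodes (0.44). These sums use genes that were picked for standing apart and describe them only. The ratio was above 0 in each of the 15 combinations of class and depth range, between 0.33 and 0.52 in macrophages, 0.40 and 0.47 in T and 0.42 and 0.47 in B barcodes. Kept barcodes of no class, 2795 in CD and 759 in HFD, had 4.09% and 5.74% (0.49). The classes and depth ranges hold the same UMIs by which the 5 genes were picked. Their ratios above 0 therefore add no support for an offset between the libraries. The unassigned barcodes took no part in the picking but come from the same libraries. Diet and library cannot be told apart. The remaining 76 genes were 17.8% and 17.6% of all UMIs in macrophages, 30.4% and 31.5% in T, and 31.3% and 29.3% in B barcodes, so the lower B share lay in these other genes, as did most of the higher T share.

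Other ribosome genes, which the naming rule does not reach, were read beside them. Fau, which encodes a ubiquitin-like protein fused to a small subunit protein, was lower in HFD in each class (5153 and 4137 CPM in macrophages, -0.32; -0.16 in T and -0.11 in B barcodes). Rack1 and Rpl36al had log2 ratios between -0.15 and 0.11 in the 3 classes.

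Further genes departed in some classes. Rpl41, a very short peptide at the interface of the subunits, departed in macrophages (2954 and 4288 CPM, 0.54) and B barcodes (4498 and 5357 CPM, 0.25) and was just short of it in T barcodes (4170 and 5303 CPM, 0.35). Rps21, a small subunit protein, departed in T barcodes (4029 and 5287 CPM, 0.39) and B barcodes (3800 and 4454 CPM, 0.23). Rpl37, another zinc-binding protein of the large subunit, did so in B barcodes (3857 and 4461 CPM, 0.21). All of these stood above the median gene.

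Rps27, a zinc-finger protein of the small subunit, had 3744 and 4940 CPM in T barcodes (0.40) and 4036 and 4673 CPM in B barcodes (0.21), where it departed, but 1478 and 1531 CPM in macrophages (0.051). The macrophage value changed with the handling of B RNA. It was 0.39 with the B profile removed and 0.19 without barcodes of mixed markers, and the part of B RNA was not tested. Both settings also raised the macrophage ratio of the whole ribosomal protein share. The distance of Rps27 from the median gene under them is not given, so these values do not show a departure. Rps27rt, a retrotransposed copy, was lower in HFD in macrophages (50.1 and 34.5 CPM, -0.54) and B barcodes (-0.55). Reads of near-identical copies may be divided between them, and 63 of the 81 genes have pseudogenes named after them in RefSeq, 319 in all; how the counting treated them is not given in the sources used here.

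Rpl22l1 departed in macrophages alone, at 403 and 623 CPM (0.63; 0.58 to 0.67), beside 610 and 754 CPM in T barcodes (0.31) and 589 and 623 CPM in B barcodes (0.08). The macrophage ratio lay between 0.45 and 0.80 in the 5 depth ranges and was 0.62 in macrophages without Mki67 or Top2a and 0.31 in those with them. Rps3a1, of the small subunit, was the 1 gene that departed below, in macrophages (3613 and 2855 CPM, -0.34), against -0.07 in T and -0.16 in B barcodes. It no longer departed in macrophages of 4000 to 16000 UMIs.

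By subunit, the small subunit genes summed to 8.45% of macrophage UMIs in CD and 8.34% in HFD, and the large subunit genes to 10.1% and 10.5%. The ratio of small to large was 0.834 and 0.797 in macrophages, 0.822 and 0.802 in T barcodes and 0.827 and 0.817 in B barcodes. It was lower in HFD in each class, by little. The stalk genes Rplp0, Rplp1 and Rplp2, whose products recruit translation factors to the large subunit, departed in no class: their log2 ratios were 0.09, 0.09 and 0.15 in macrophages, 0.12, 0.10 and 0.21 in T barcodes and -0.06, -0.036 and -0.02 in B barcodes. Rpsa, a small subunit protein also known as a laminin receptor, had -0.015, -0.045 and -0.13. The macrophage values also changed with the handling of B RNA. With the B profile removed they were 0.34, 0.23 and 0.29 for Rplp0, Rplp1 and Rplp2 and 0.15 for Rpsa. Without barcodes of mixed markers Rplp1 was 0.0023 in T barcodes.

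Between cell types the genes differed together. In CD the ribosomal protein share of B barcodes was 1.76 times and that of T barcodes 1.71 times the macrophage share, and in HFD 1.66 and 1.78 times. In both libraries 79 of 81 genes (97.5%) were higher in B than in macrophage barcodes, against 50.2% of all genes, and 77 of 80 (96.3%) were higher in T barcodes, against 53% of all genes. B and T barcodes were nearly level, with a share ratio of 1.03 in CD and 0.932 in HFD; 17 of 81 genes were higher in B in both libraries, against 29.5% of all genes.

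Very few of the genes lay away from the rest by 1 log2 unit or more in both libraries. For B over macrophages, 0 lay that far above and 1 that far below the median gene, where 9.24% and 29% of all genes did. For T over macrophages it was 0 and 2 (7.52% and 27.9% of all genes), and for B over T 0 and 0 (7.81% and 8.01%). Among genes outside the set with at least 500 CPM, the shares below were 52.7%, 53.2% and 6.21% in the 3 contrasts. The first was Rps27l, whose distance from the median gene was -1.65 in CD and -1.94 in HFD for B over macrophages, and -1.57 and -2.12 for T over macrophages. The other was Rpl7l1, at -1.19 and -1.32 for T over macrophages. Both are paralogs of other ribosomal protein genes.

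**Figure D4:**
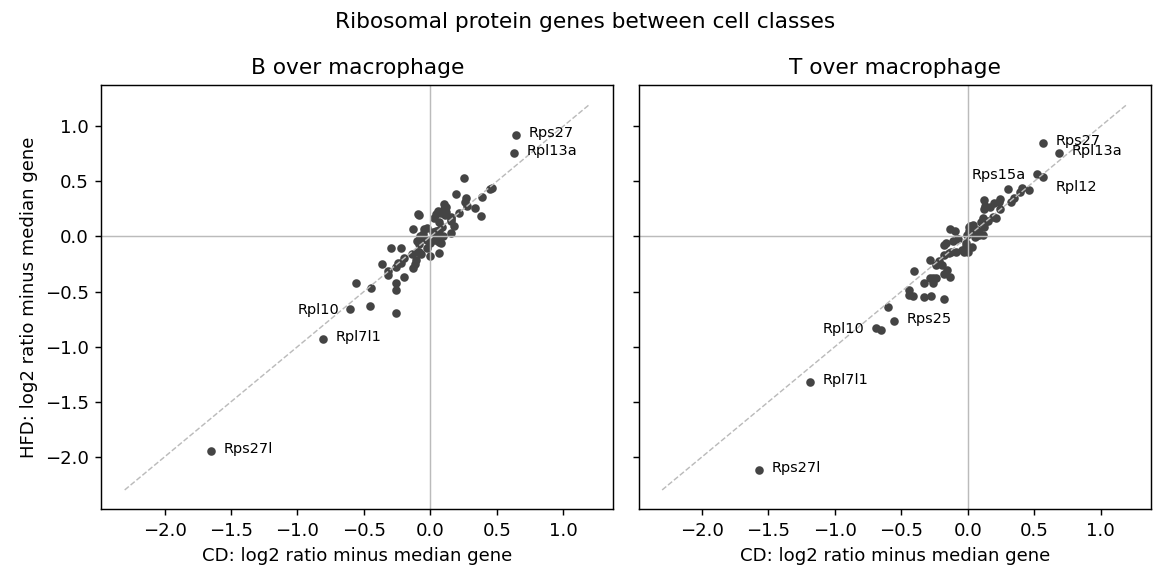
Log2 ratio of CPM between cell classes minus that of the median ribosomal protein gene, in CD (x axis) and HFD (y axis), for B over macrophage barcodes and T over macrophage barcodes; each point is 1 gene (Rpl39l is left out), the dashed line marks equal values, and names are given to some of the genes at least 0.5 from the median in both libraries. Rps27l lies alone at -1.65 and -1.94 for B over macrophages, and most genes lie near 0 in both libraries.

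With a distance of 0.5, chosen after the values were seen, some standard ribosomal protein genes also differed between classes. Rpl13a, a large subunit protein also linked to translational silencing in the interferon response of myeloid cells, was weighted to lymphocytes: 2268 and 2061 CPM in macrophages of CD and HFD, 6248 and 6242 CPM in T barcodes and 6138 and 5628 CPM in B barcodes. Its distance from the median gene was 0.63 and 0.76 for B over macrophages and 0.69 and 0.75 for T over macrophages. Rps27 lay 0.64 and 0.92 above the median for B over macrophages. Rpl12 and Rps15a joined them for T over macrophages, at 0.57 and 0.54 and at 0.52 and 0.57.

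Rpl10, a large subunit protein that joins late in assembly, leaned the other way. Its level was nearly the same in macrophages (2995 and 2921 CPM), T barcodes (3168 and 2954 CPM) and B barcodes (3447 and 2989 CPM), which put it at -0.60 and -0.66 from the median gene for B over macrophages. For T over macrophages Rpl10 was at -0.69 and -0.83 and Rps25 at -0.56 and -0.77. Between B and T barcodes no gene reached 0.5 in both libraries.

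The paralogs showed the clearest difference between cell types. Rps27l, a close relative of Rps27 that is known as a p53 target, gave 16.3% of the UMIs of the pair in CD macrophages and 19.2% in HFD macrophages, but 4.23% and 2.95% in T barcodes and 3.82% and 3.17% in B barcodes. Its level was 287 and 364 CPM in macrophages, 166 and 150 CPM in T and 160 and 153 CPM in B barcodes, while Rps27 was lower in macrophages than in lymphocytes. In single depth ranges the share of the pair was between 11.3% and 21.8% in macrophages and between 2.40% and 7.69% in lymphocytes, so the ranges did not overlap. These are shares of counted UMIs with no correction for transcript length, and they are compared between classes only.

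Rpl22l1, the paralog of Rpl22, an RNA-binding protein needed for normal T-cell development, gave 18.8% of its pair in CD macrophages and 28.2% in HFD macrophages. In T barcodes the share was 18.8% and 21.8%, and in B barcodes 17.5% and 18.8%. With all depths summed, the classes were nearly level in CD, and macrophages stood above both lymphocyte classes in HFD. In CD macrophages the share was 16.1% below 2000 UMIs and 22.2% above 16000, and HFD macrophages were deeper. At 2000 to 4000 UMIs HFD macrophages had 22.7% (19.8 to 25.8) and HFD T barcodes 22.6% (20.9 to 24.4), so these were level. In the other depth ranges the HFD share was highest in macrophages. Rpl22 itself had 1741 and 1590 CPM in macrophages (-0.13), so the 2 genes of the pair differed in opposite directions between the libraries. Under the alternatives run the Rpl22 ratio in macrophages lay between -0.14 and -0.026, so its difference was close to none in some. B barcodes had more Rpl22 (2777 and 2683 CPM), and the part of B RNA in the macrophage ratio was not tested.

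Rpl7l1 gave 4.13% and 4.14% of its pair with Rpl7 in macrophages, 2.11% and 2.03% in T and 2.57% and 2.44% in B barcodes. Rpl36al, outside the naming rule, gave 38% and 36.6% of its pair with Rpl36a in macrophages, 32.7% and 27.4% in T and 30.3% and 28.4% in B barcodes. Rpl39l, best known from the testis, stayed at or below 0.058% of its pair with Rpl39 and below 3 CPM in every class. Rpl3l, the form of heart and skeletal muscle, had 12 UMIs over all classes, and Rpl10l, another form of the testis, had 0.

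**Figure D5:**
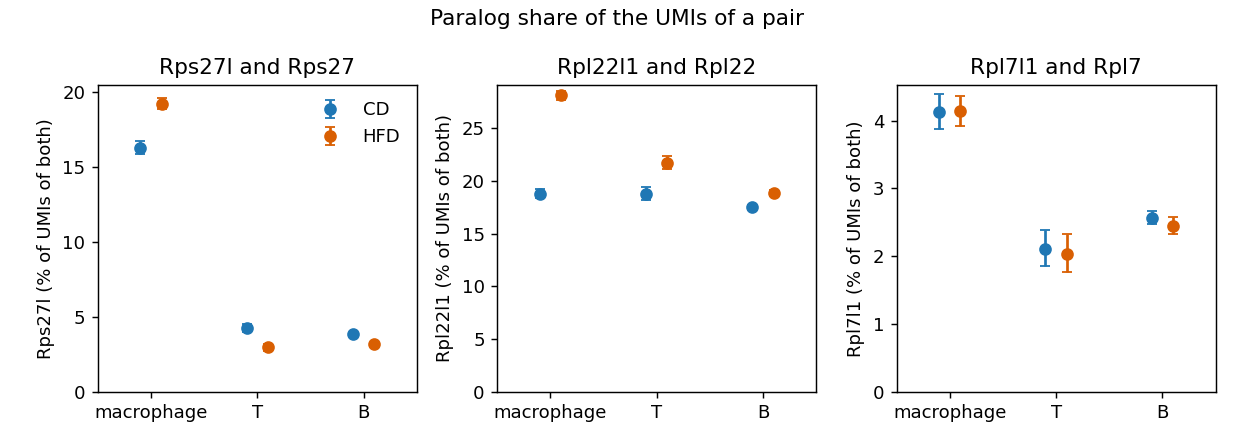
Share of the UMIs of a paralog pair that came from the paralog (y axis, percent, with 95% counting intervals) for macrophage, T and B barcodes in CD and HFD. Rps27l stands at 16.3% and 19.2% in macrophages against at most 4.23% in lymphocytes, and Rpl22l1 is highest in HFD macrophages at 28.2%.

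Genes that make ribosomes were then read from lists beside the set, as counts at or past 0.32 log2 units in either direction. For B barcodes 16% of all genes lay that far up and 13.7% that far down, for macrophages 15.5% and 24.6%, and for T barcodes 15.6% and 21.7%. In B barcodes 0 of 40 ribosome biogenesis genes lay up and 12 down, 4 were above 0 at all, and the median was -0.26 against 0.01 over all genes. Among them Nop16 had 50.1 and 34.9 CPM (-0.52), and Dkc1, the pseudouridine synthase of rRNA, 63.3 and 46.8 CPM (-0.44). In B barcodes both biogenesis and ribosomal protein mRNAs thus made up a smaller share of the UMIs in HFD, with all depths summed. For the biogenesis list this share was 0.248% in CD and 0.212% in HFD, and it was not read by depth range. The same list had a median of 0.02 in macrophages (0 up, 1 down) and 0.05 in T barcodes (2 up, 2 down).

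A list of 18 other genes taken as TOP mRNAs held elongation factors, initiation factors and genes such as Npm1, Tpt1 and Vim. Their start sites were not checked here for the motif. The list had a median of -0.12 in macrophages (1 up, 1 down), 0.02 in T (0 and 0) and -0.13 in B barcodes (1 and 1). The B median was close to that of the ribosomal protein genes. The gene that lay up in both was Vim, the intermediate filament gene, at 630 and 1455 CPM in macrophages (1.21). Of 9 host genes of small nucleolar RNAs, which also tend to carry a TOP start, 4 lay up and 0 down in T barcodes (median 0.27), 2 and 0 in macrophages (0.07) and 1 and 0 in B barcodes (-0.11). Snhg3 was higher in HFD in each class: 26.7 and 37.6 CPM in macrophages (0.50), 39.4 and 81.8 CPM in T barcodes (1.05) and 46.4 and 63.0 CPM in B barcodes (0.44).

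For mTORC1 and TOP control 1 of 17 genes lay up and 4 down in macrophages, 3 and 4 in T and 1 and 3 in B barcodes, with medians of -0.06, 0.10 and -0.01. Ddit4, a stress-induced inhibitor of mTORC1, was lower in HFD in all 3. It had 5.17 and 1.61 CPM in macrophages (-1.68, interval -2.32 to -1.07), 36.7 and 24.6 CPM in T barcodes (-0.58) and 21.4 and 15.2 CPM in B barcodes (-0.49). The macrophage level is low. B markers were higher in CD than in HFD macrophages, and the part of B RNA in the macrophage ratio was not tested. The 78 genes of the mitochondrial ribosome had medians of 0.05, -0.02 and -0.05, with 5 up and 0 down in macrophages, 2 and 3 in T and 1 and 4 in B barcodes. The 15 initiation factor genes had medians of 0.16, 0.09 and -0.05, with 0 up in any class and 1 down, Eif1 in macrophages (1516 and 1151 CPM, -0.40). Of the genes of ribosome stress and rescue, 0 of 10 lay up and 1 down in macrophages, 2 and 1 of 9 in T, and 0 and 0 of 10 in B barcodes.

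Several of the departing genes encode very short proteins, so genes of other short proteins, listed after the data were seen, were read beside them. Of 23 tested, 13 lay up and 0 down in macrophages (median 0.33), 4 and 0 in T (0.17) and 7 and 0 in B barcodes (0.20). Cox7c, a subunit of cytochrome c oxidase, had 344 and 535 CPM in macrophages (0.64), 340 and 428 CPM in T (0.33) and 310 and 414 CPM in B barcodes (0.42). The list was made by name and not by measured length, and the part of transcript length in the offset between the libraries was not tested.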

How the data were processed

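The deposited expression files hold raw UMI counts per gene and barcode, with no normalization by the authors. Cell Ranger 8.0.1 wrote them, per the file headers; version 6.0.1 of the same tool, together with Seurat 4.3.0 and build mm39, is given per the submitters' processing notes. The labels' protocols name a 3′ kit. How cells were called and how multi-mapping reads were counted is not given in the sources used here. The deposited receptor tables, with counts of reads and UMIs per contig, were used for barcodes and for contig genes only.

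A barcode needed 300 genes or more, and no more than 10% of its UMIs could be mitochondrial; 13069 barcodes of CD and 6684 of HFD passed. Barcodes past both the macrophage and the T limit, 99 and 49, were left out. No doublet caller was run, so mixed barcodes remain; an alternative leaves out barcodes with markers of another class. UMIs were summed per class and library and divided by the class total (CPM). Shares carry exact Clopper-Pearson intervals and log2 ratios the exact conditional interval of 2 Poisson counts. Genes needed 20 UMIs in the class over both libraries. With 1 library per diet no test was run, and PCR and mouse-to-mouse variation are not in the intervals. The intervals were tried on simulated Poisson counts, the model they assume, so this could not test them for the counts of the cell classes. The departure rule, measured from the median gene, was not tested on simulated counts. Named genes were those that departed between diets or classes, the paralog pairs, the stalk genes with Rpsa, and those at the UMI minimum; a few genes under this rule or the lists are not reported here. The gene set and the lists were chosen with earlier results of these data known. Promoter sequences are from RefSeq (GRCm38.p6). Python 3.11.15, numpy 2.4.6, scipy 1.17.1 and pandas 2.3.3 were used.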

Additional observations from a re-analysis of the deposited data

Results flagged for a closer look

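The ribosomal protein share of UMIs ran in opposite directions in T and B barcodes: the log2 ratio of HFD over CD was 0.073 in T and -0.069 in B barcodes. With 1 library per diet, this difference between the classes was not tested.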

How the results depend on the processing

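No paired analysis was possible because each diet has 1 library, and for the same reason no replicate could be left out. No share and no subunit ratio changed direction under the alternatives run. The log2 ratio of the share (0.018 in macrophages, 0.073 in T, -0.069 in B) was 0.013 in macrophages and -0.071 in B with no barcode filter, -0.066 in B with a stricter filter (800 genes, 5% mitochondrial UMIs), 0.024, 0.061 and -0.077 with stricter class limits, 0.084, 0.046 and -0.10 without barcodes of mixed markers, 0.014, 0.064 and -0.079 at 4000 to 16000 UMIs, 0.033, 0.066 and -0.080 thinned to 2000 UMIs, 0.048, 0.10 and -0.079 with equal weight per barcode, 0.070 in T and -0.063 in B without mitochondrial and immunoglobulin genes in the total, and 0.16 and 0.10 in macrophages and T with the B profile removed, an alternative added after the data were seen. Thinning left out 250, 156 and 148 CD and 64, 40 and 94 HFD barcodes. The log2 ratio of small to large subunit UMIs (-0.066, -0.035 and -0.017) was -0.061, -0.015 and -0.015 without mixed barcodes, -0.050 in macrophages and -0.013 in B at 4000 to 16000 UMIs, -0.022 in B thinned, and -0.072 in macrophages with the B profile removed. Genes departing below in macrophages were 1, but 0 at 4000 to 16000 UMIs and 3 with equal weight. A departure of 0.5 gave 3, 2 and 3 genes above in macrophages, T and B, and 0 below in macrophages. Rps29 and Rps28 departed in every class under every setting run; Rpl39 did not in thinned T barcodes, and at 0.5 Rpl37a and Rpl39 did not in any class nor Rpl38 in macrophages and T. Of the single-gene values under these alternatives, 324 stayed within the interval of the main value and 144 did not. Those that changed sign had intervals that include 0: Rpsa in macrophages (up to 0.15), and Rpl7l1 in macrophages (up to 0.17) and T (up to 0.15). The causes were not tested. Depth limits Rpl39l, Rpl3l and Rpl10l, which rest on few or 0 UMIs.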
